A study of Mus musculus with 8 samples.

Results

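The nuclear-encoded genes of oxidative phosphorylation were examined in single endocardium cells of mouse embryos at E8.5. Members were the non-control probes of the array whose gene name starts with Nduf, Uqcr, Cox4, Cox5, Cox6, Cox7, Cox8 or Atp5, or is Cyc1, Cycs, Sdha, Sdhb, Sdhc or Sdhd. A gene with several probes was given by its brightest probe, as the mean over all arrays. This rule, which used no difference between genotypes, found 95 genes among the 35526 gene names measured, with 43 genes of complex I, 4 of complex II, 9 of complex III, 20 of complex IV, 18 of complex V and *Cycs*, the gene of cytochrome c. The name rule also took in 7 assembly factors of complex I, 8 tissue-restricted isoforms of complex IV subunits and 4 genes that are not structural subunits.

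The mitochondrial respiratory chain passes electrons from NADH, at complex I, and from succinate, at complex II, through ubiquinone to complex III, and from there through cytochrome c to complex IV, where oxygen is reduced. Complexes I, III and IV pump protons across the inner membrane, and complex V, the ATP synthase, uses the gradient to make ATP. The mitochondrial genome encodes a few core subunits of complexes I, III, IV and V, whereas all other subunits, and all of complex II, are encoded in the nucleus. The embryonic heart begins to beat at about the stage sampled, and the endocardium is the endothelial layer that lines its lumen.

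Each of the 8 one-colour arrays held amplified cDNA of 1 cell from a heart tube at the 9-somite stage. The 4 WT cells came from embryos with the genotype Mesp1+/+_Sox17flox/flox, in which both *Sox17* alleles are floxed and no Cre is present, and the 4 KO cells from embryos with the genotype Mesp1Cre/+_Sox17flox/flox, in which Cre is expressed from the *Mesp1* locus in early mesoderm. The controls carried no Cre, so that Cre itself and the loss of *Sox17* cannot be told apart. The labels do not say which embryo a cell came from. A genotype was therefore taken as 1 sample and no test was made, and differences are given beside the SD between cells, which may hold technical spread from the amplification of 1 cell. Precision is limited by the small number of arrays.

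All values below are log2 signals of a probe after scaling between arrays, with signals under 50 set to 50, a floor of 5.64 on the log2 scale. A value at the floor does not show that a cell lacked the transcript. Levels of different probes are not on a common scale, so that the level of a gene was compared between cells only. Neither of the 2 *Sox17* probes was read above background in any cell, so that the arrays do not check the genotypes. Of 10 endocardial or endothelial markers, each was well above background in at least 1 cell, and *Cdh5*, *Kdr*, *Pecam1* and *Sox18* were in all 8. *Nfatc1* was well above background in 4 WT and 3 KO cells, *Tek* in 4 and 2, and *Npr3* in 3 and 0. *Tie1* was so in 3 WT and 4 KO cells, *Sox7* in 3 and 3, and *Emcn* in 1 and 4. *Nfatc1* differed by -1.58 (pooled SD 2.23). *Emcn* was 4.07 higher in KO cells (pooled SD 2.58), with 3 of 4 WT cells at the floor, and *Tek* differed by -2.16 (pooled SD 1.88). Markers of the endoderm were well above background in no cell, and the 5 blood markers did not exceed the floor in any cell. Of 9 cardiomyocyte markers 8 were well above background in some cell, among them *Actc1* and *Myh7* in all 8, while *Tbx5* was in none and *Myh6* did not exceed the floor. The log2 of the summed signal of these 9 markers, taken before the floor was set, ranged from 8.31 to 15.06 in WT cells. In KO cells it ranged from 9.97 to 15.57. *Actc1* was 2.67 higher in KO cells (pooled SD 2.79), or 1.46 without WT 1. The part of these transcripts in the values below was not tested. The array of WT 1 stood apart: it had the lowest scaling median of the 8, 109.1 against 134.7 to 427.4, the fewest probes well above background, 11370 against 12781 to 18175, and a spot-to-spot CV of 12.53% against 3.93% to 8.02%. For differences that its omission takes across 5-fold, the value without it is given too. All arrays lay on 1 slide with the genotypes in separate columns, so that position on the slide and genotype cannot be told apart.

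Promoters of the members were searched for 3 letter strings that stand for factors known to drive nuclear genes of the respiratory chain. Transcription of these genes is classically tied to nuclear respiratory factor 1 (NRF1), to ETS-family factors such as GABP, also named nuclear respiratory factor 2, and to YY1. Windows from 250 bases before to 50 bases after the annotated start, from RefSeq on GRCm38.p6, were found for 77 members and numbered 83. The NRF1 string CGCATGCG, read on both strands, stood in 14.5% of the member windows, against 2.52% of the windows of protein-coding genes and 1.87% of all 32851 windows. The ETS string CCGGAAG was in 20.5% of member windows, against 11.6% and 8.86%, and the YY1 string AAGATGGC also in 14.5%, against 3.05% and 2.75%. None of the strings contains another. At least 1 of the 3 was present in 42.2% of member windows, in 16.0% of coding windows and in 12.6% of all. A match is a string in the window and not a shown binding site.

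The 170 bases before the start are shown for 5 members whose values are described below. All 5 hold an NRF1 or ETS string there, whereas 42.2% of member windows hold any of the strings searched. The 5 thus do not stand for the members at large. Whether a string goes with a difference or a spread was not tested. Shown are *Cycs*, a gene known for its control by NRF1, and *Sdhd* and *Atp5g2*, both at least 5-fold higher in KO cells. The others are *Atp5k*, whose values spread widely between cells, and *Cox6a1*, whose values were among the least variable. Capitals mark the NRF1 string, or the ETS string on the opposite strand (CTTCCGG), and each sequence is written 5′ to 3′ on the strand of the gene.
Sdhd, chr9:50603850-50604019, minus strand: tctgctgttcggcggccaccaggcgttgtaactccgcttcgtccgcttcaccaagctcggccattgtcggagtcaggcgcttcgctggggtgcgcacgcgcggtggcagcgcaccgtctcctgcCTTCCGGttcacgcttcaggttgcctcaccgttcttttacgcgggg
Cycs, chr6:50566570-50566739, minus strand: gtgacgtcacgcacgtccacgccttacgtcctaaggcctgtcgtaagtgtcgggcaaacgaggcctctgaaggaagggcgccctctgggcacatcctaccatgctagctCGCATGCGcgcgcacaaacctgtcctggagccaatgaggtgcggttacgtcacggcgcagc
Atp5g2, chr15:102671048-102671217, minus strand: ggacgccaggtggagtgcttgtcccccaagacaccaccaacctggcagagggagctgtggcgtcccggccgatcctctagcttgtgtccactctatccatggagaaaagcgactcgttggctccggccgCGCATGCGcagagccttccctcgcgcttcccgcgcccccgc
Atp5k, chr5:108434400-108434569, minus strand: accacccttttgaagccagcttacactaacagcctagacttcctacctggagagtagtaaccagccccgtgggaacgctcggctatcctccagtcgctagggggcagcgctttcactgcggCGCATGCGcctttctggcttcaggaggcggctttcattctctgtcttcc
Cox6a1, chr5:115348959-115349128, minus strand: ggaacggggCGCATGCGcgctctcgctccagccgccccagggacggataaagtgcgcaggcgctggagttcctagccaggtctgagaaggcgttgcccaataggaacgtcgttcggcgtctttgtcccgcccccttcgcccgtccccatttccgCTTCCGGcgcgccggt
The ETS string began 46 bases before the start in *Sdhd*, and the NRF1 string 61 bases before it in *Cycs*, 41 in *Atp5g2* and 49 in *Atp5k*. *Cox6a1* held both an NRF1 string, 161 bases before the start, and an ETS string, 16 bases before it.

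The next sequences are array probes that decide a result below, each 60 bases long and placed on mm9 by the array's annotation. The *Atp5o* probe is shown because its placement is not on the chromosome that holds the gene in RefSeq, the second *Sdhb* probe because it repeats the difference seen with the brightest *Sdhb* probe, and the *Cyc1* probe because its difference drops under 5-fold when any of several single cells is left out.
Atp5o, brightest probe, chr12:85599301-85599360: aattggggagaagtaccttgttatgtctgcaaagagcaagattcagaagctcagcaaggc
Sdhb, second probe, chr4:140529606-140529665: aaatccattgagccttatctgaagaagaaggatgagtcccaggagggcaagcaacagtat
Cyc1, brightest probe, chr15:76175938-76175997: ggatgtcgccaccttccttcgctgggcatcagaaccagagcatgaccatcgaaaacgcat

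Most of the genes were read in most cells. Between 71 and 84 of the 95 were well above background in each WT cell and between 79 and 82 in each KO cell, whereas 25.5% to 39.9% of all gene names were. Of the 95, 61 were well above background in all 8 cells and 5 in none, namely *Ndufab1*, *Atp5s*, *Cox7b2*, *Cox8b* and *Cox8c*. The complexes differed in this respect, and the part of probe brightness in that was not tested. All 11 ubiquitous subunits of complex IV and all 15 subunits of complex V were well above background in every cell, against 19 of 36 subunits of complex I and 3 of its 7 core subunits, which carry the flavin and iron-sulfur clusters or the quinone site. After scaling, 17 of the 36 complex I subunits lay at the floor in WT 1, and between 2 and 9 did in the other cells. At most 2 of the 15 complex V subunits lay at the floor in any cell, and of the complex IV subunits 2 were at the floor in WT 1 and none in the other cells. Over the 95 genes, 37 were at the floor in WT 1 and 18 to 24 in each other cell.

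**Figure D1:**
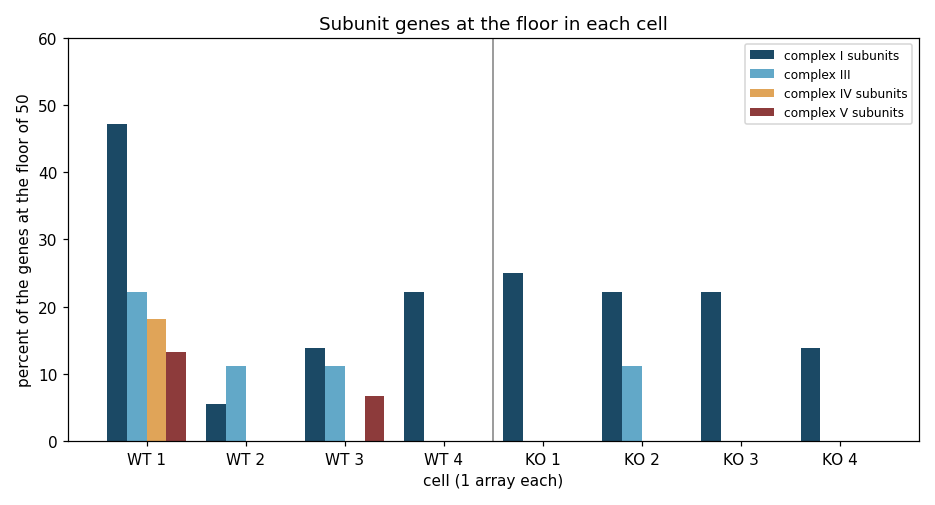
Percent of subunit genes at the floor of 50 in each of the 8 cells, with 1 bar each for complex I (36 genes), complex III (9), complex IV (11 ubiquitous subunits) and complex V (15). Complex I has the highest bar in 7 of the cells, WT 1 has the highest bars of complexes I, III, IV and V, and WT 2 alone has complex III above complex I.

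Between genotypes, 13 of the 95 genes were at least 5-fold higher in KO cells and 6 at least 5-fold lower, taking 5-fold as a difference of 2.32 between mean log2 values. The rate was 13.7% for higher and 6.32% for lower genes, beside 1.84% and 1.86% of all 35526 gene names. Of those, 20987 lay at the floor in all 8 cells, where no difference can arise. Among genes with a mean over the 8 cells of at least 200 (7.64 on the log2 scale), 13 of 81 members were 5-fold higher, or 16.0%, beside 8.34% of the 5578 genes, and 5 were 5-fold lower, or 6.17%, beside 7.05%. With the 75th percentile for scaling the counts were 11 higher and 9 lower, beside 1.47% and 2.27% of all gene names. Without WT 1 they were 8 higher and 9 lower, beside 1.55% and 2.96% of all gene names. Among genes with a mean of at least 200 they were then 8 and 8, or 9.88% each, beside 6.42% and 10.6%. Without that cell *Atp5l* was newly 5-fold higher (2.87), and *Atp5k*, *Ndufa4*, *Ndufa13* (-3.07), *Ndufb3* (-3.24) and *Uqcr10* were newly 5-fold lower. The higher genes that dropped under 5-fold were *Ndufs7* (1.18), *Ndufb10* (2.07), *Ndufc2* (1.52), *Ndufaf2* (2.18), *Atp5g2* and *Atp5o*, and the lower ones were *Ndufaf3* (-0.90) and *Atp5j2*. The median difference over the 95 genes was 0.00, as it was over all gene names, with 45 genes higher, 42 lower and 8 with no difference. Over the 81 members with a mean of at least 200 it was 0.19, and over all 5578 such genes 0.28.

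The spread between cells was wide against these differences. The pooled SD within genotypes had a median of 2.49 over the 95 genes, and the difference exceeded it in 15 genes, 11 higher and 4 lower in KO cells. That was 18.5% of the 81 members with a mean of at least 200, against 25.1% of the 5578 genes at that level. Of the 19 genes that differed by at least 5-fold, 12 exceeded their pooled SD. Of the 19, 7 remained at least 5-fold apart whichever of the 8 cells was left out. Those higher in KO cells were *Sdhb*, *Sdhd*, *Uqcrc2*, *Ndufa8* and *Ndufv3*, the last by its brightest probe only, and those lower were *Ndufs5* and *Ndufa7*. How many of all gene names at least 5-fold apart meet either condition was not counted, so neither 12 nor 7 can be called particular to these genes.

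**Figure D2:**
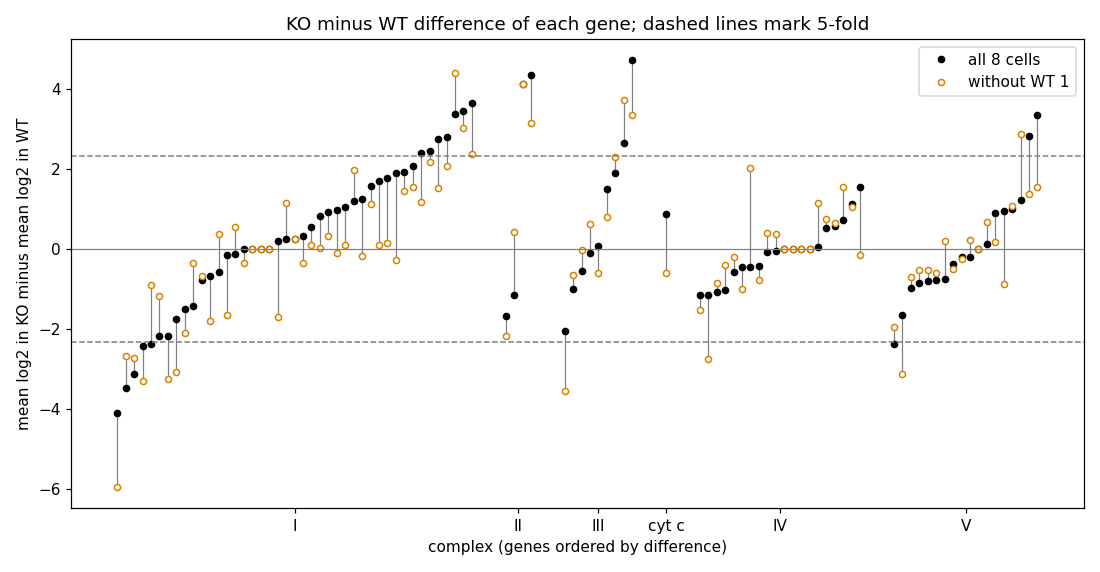
Difference between the mean log2 signal of 4 KO and 4 WT cells for each of the 95 genes, ordered within complexes (cyt c, cytochrome c), with all 8 cells (filled) and without WT 1 (open). Dashed lines mark 5-fold, and the points of complex IV with all cells lie between -1.15 and 1.56.

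No KO cell overlapped a WT cell for 4 genes. *Uqcrc2*, *Sdhb* and *Atp5o* were higher in every KO cell, or 3.16% of members beside 0.645% of all gene names, and *Ndufa7* was lower in every KO cell, or 1.05% beside 0.144%. Among genes with a mean of at least 200 the shares were 3.7% against 3.66% for higher and 1.23% against 0.753% for lower. The share higher in every KO cell was thus near the background. Without WT 1, 4 members were higher and 3 were lower in every KO cell, beside 1.51% and 0.69% of all gene names. Among genes with a mean of at least 200 these were 4.94% of members beside 7.08%, and 3.7% beside 2.33%.

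**Figure D3:**
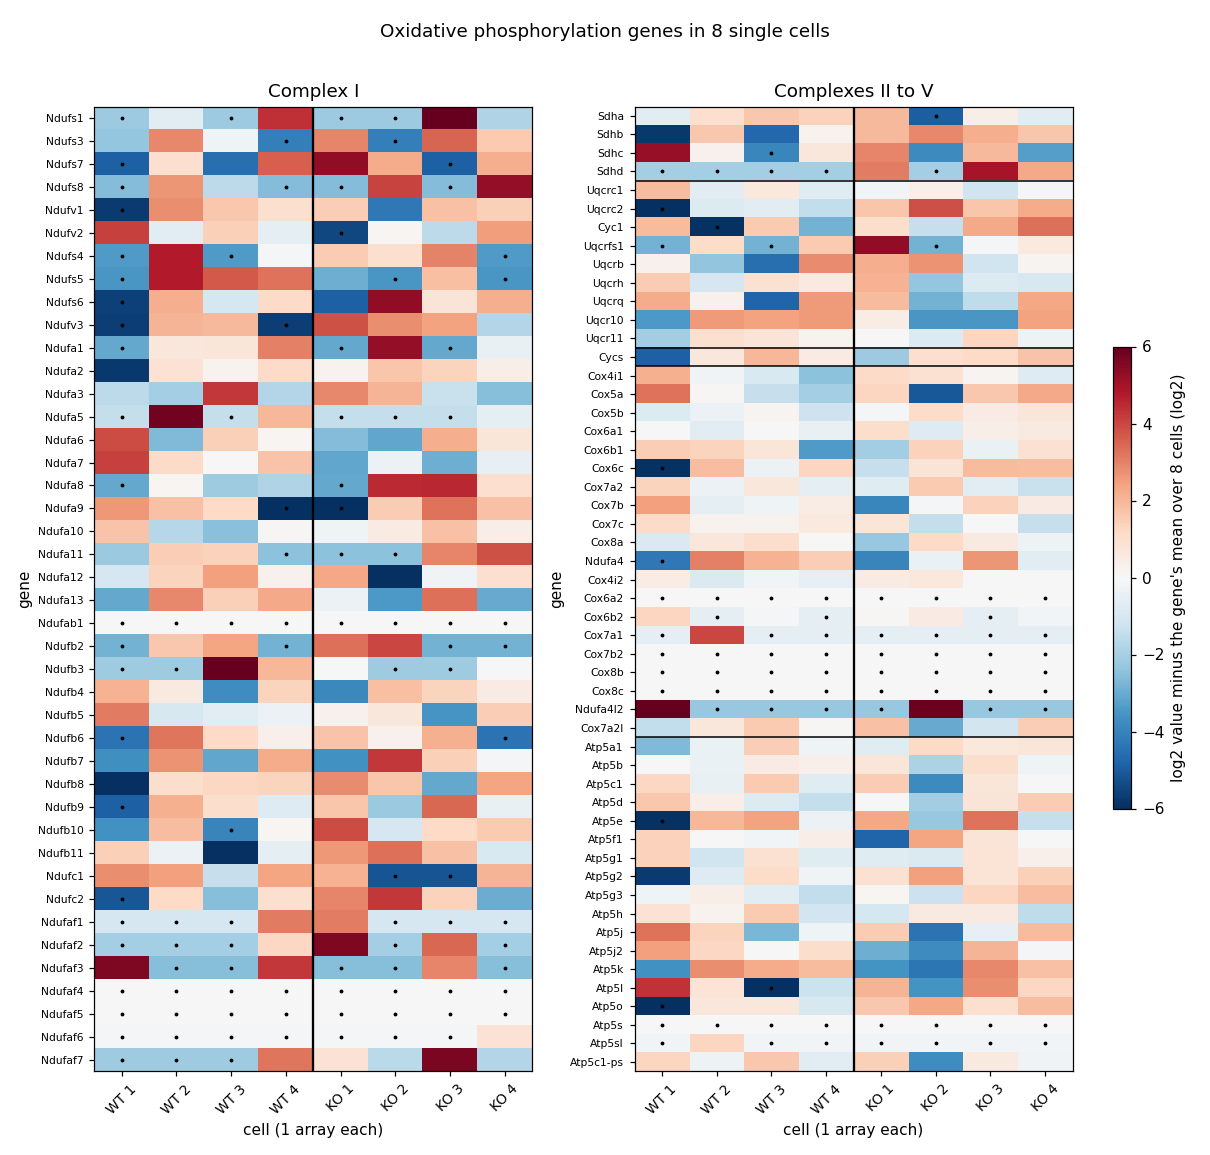
Log2 signal of 94 of the 95 genes (rows) in 4 WT and 4 KO cells (columns) minus the mean of that gene over the 8 cells, with colours limited to 6 either way. Dots mark values at the floor, of which WT 1 has the most, and a horizontal line separates the complexes.

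Succinate dehydrogenase, complex II, has 4 subunits and links the tricarboxylic acid cycle to the chain. *Sdhb*, which encodes its iron-sulfur subunit, had log2 values of 5.95, 13.35, 7.02 and 11.98 in WT 1 to WT 4 and of 13.71, 14.64, 13.94 and 13.39 in KO 1 to KO 4. The KO cells lay close together (SD 0.53) above all WT cells, 2 of which were low and 2 high, and the gap between WT 2 and KO 4 was only 0.04. The mean was 4.35 higher in KO cells (pooled SD 2.60), or 3.14 without WT 1, and the second probe shown above gave 4.41. *Sdhd*, a membrane anchor, was at the floor in all 4 WT cells and had values of 10.78, 5.64, 12.65 and 9.97 in KO 1 to KO 4. Its signal thus lay above the floor in 3 cells, all of them KO. The difference of 4.12 is set by the floor and was 6.13 with a floor of 10 and 2.62 with a floor of 200.

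The other subunits of complex II did not follow. *Sdha*, the flavoprotein that oxidizes succinate, had values of 9.95, 11.59, 12.23 and 12 in WT cells and of 12.53, 5.64, 10.98 and 9.90 in KO cells. Its difference of -1.68 (pooled SD 2.21) was -0.30 without KO 2, the cell at the floor. *Sdhc*, the second membrane anchor, ranged from the floor in WT 3 to 14.79 in WT 1 and from 5.72 to 12.48 in KO cells. Its difference of -1.14 (pooled SD 3.62) turned to 0.42 without WT 1.

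In complex III, which passes electrons from ubiquinol to cytochrome c, 2 of 9 genes were at least 5-fold higher in KO cells and none was lower. Beside that, 1.84% of all gene names were higher and 1.86% lower, or 8.34% and 7.05% of those with a mean of at least 200. *Uqcrc2*, a core protein of the matrix face of the complex, had values of 5.64, 11.32, 11.48 and 10.63 in WT cells and of 13.79, 16.00, 13.78 and 14.37 in KO cells. Every KO cell was above every WT cell, with a gap of 2.30, which is the widest of the 4 genes that did not overlap. Its mean was 4.72 higher in KO cells (pooled SD 2.10), a 26.3-fold difference, and 3.34 higher without WT 1, which lay at the floor. *Cyc1*, cytochrome c1, had values of 13.49, 5.64, 13.15 and 8.76 in WT cells and of 12.62, 10.22, 13.88 and 14.91 in KO cells. Its groups overlapped, and the difference of 2.64 (pooled SD 3.02) was 1.10 without WT 2, the one cell at the floor, and was under 5-fold without WT 4, KO 3 or KO 4 as well.

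*Uqcrfs1*, the Rieske iron-sulfur protein, lay at the floor in WT 1, WT 3 and KO 2 and was highest, at 13.82, in KO 1. Its difference was 1.51 (pooled SD 2.95). *Uqcrc1* encodes the partner core protein of *Uqcrc2*, and unlike it was 0.55 lower on the log2 scale in KO cells (pooled SD 1.0), with all 8 values between 11.63 and 14.72. *Uqcr10*, a small subunit, was about as high in WT 2, WT 3, WT 4 and KO 4, at 12.99 to 13.17, at 11.06 in KO 1, and at 7.11 to 7.13 in WT 1, KO 2 and KO 3. Its difference of -2.04 became -3.54 without WT 1. The remaining members *Uqcrb*, *Uqcrh*, *Uqcrq* and *Uqcr11* differed by -1.0 to 1.91. *Cycs* had values of 7.98, 13.54, 14.86 and 13.39 in WT cells and of 10.70, 13.88, 14.08 and 14.61 in KO cells. Its difference of 0.87 (pooled SD 2.49) was -0.61 without WT 1, the lowest cell, and -0.05 with quantile normalization.

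Complex I, the largest of the complexes, has 43 of the 95 genes. It held 7 of the 13 higher genes and 5 of the 6 lower ones. Among all gene names with a mean of at least 200, 8.34% were higher and 7.05% lower, and of all gene names 1.84% and 1.86%. *Ndufa7*, a supernumerary subunit, had values of 16.03, 13.04, 11.87 and 13.63 in WT cells and of 8.79, 11.54, 8.96 and 11.43 in KO cells. Every KO cell lay below every WT cell, with a gap of 0.33 between WT 3 and KO 2. Its mean was 3.47 lower on the log2 scale in KO cells (pooled SD 1.64), an 11-fold difference, and 2.67 lower without WT 1, the highest cell.

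*Ndufs5*, a further supernumerary subunit, had values of 5.64, 13.91, 12.84 and 12.39 in WT cells and of 6.22, 5.64, 10.94 and 5.64 in KO cells. Apart from WT 1, at the floor, all WT cells were above all KO cells. The difference of -4.09 (pooled SD 3.22) was -5.94 without WT 1. Its probe is placed on chromosome 16 by the array's annotation, which is not the chromosome of the gene in RefSeq, so that the signal of a near-identical copy cannot be told apart. *Ndufc1*, a membrane-arm subunit, was at 9.44 to 13.60 in WT cells, at the floor in KO 2 and KO 3, and at 12.90 and 12.84 in KO 1 and KO 4. Its difference of -3.13 (pooled SD 3.26) thus reflected KO cells of 2 kinds. *Ndufa5* was above the floor in WT 2, WT 4 and KO 4 only, at 12.87, 9.06 and 6.57, and its difference of -2.43 was -0.91 without WT 2. *Ndufaf3*, an assembly factor, was above the floor in WT 1, WT 4 and KO 3 only, and its difference of -2.37 was -0.90 without WT 1.

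Among the complex I genes higher in KO cells, *Ndufv3*, a subunit of the flavoprotein part, had values of 5.64, 13.34, 13.26 and 5.64 in WT cells and of 15.12, 14.09, 13.72 and 9.55 in KO cells. The WT cells were of 2 kinds, at the floor or just below the 3 high KO cells. The difference was 3.65 (pooled SD 3.58), but 2 other *Ndufv3* probes, each well above background in all 8 cells, gave 0.68 and -0.17. The probes of this gene thus disagreed, and its difference holds for the brightest probe only. *Ndufa8*, a subunit of the intermembrane space side, was at 5.64 to 8.80 in WT cells and at 5.64, 13.20, 13.21 and 9.70 in KO cells, a difference of 3.46 (pooled SD 2.71). KO 1 was at the floor and the other KO cells were above every WT cell.

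*Ndufb11*, a membrane-arm subunit encoded on the X chromosome, was at 14.87, 13.10, 6.16 and 12.90 in WT cells and at 16.06, 16.73, 15.20 and 12.54 in KO cells. Its difference of 3.38 (pooled SD 3.01) was 1.51 without WT 3, the one low cell. These values come from a probe placed on chromosome 5, and the probe placed on X exceeded the floor in KO 2 alone, at 11.95, with a difference of 1.58. *Ndufb10*, *Ndufc2*, *Ndufs7* and *Ndufaf2* differed by 2.81, 2.76, 2.41 and 2.45, with genotypes that overlapped in each. Each of these fell under 5-fold when WT 1 was left out. *Ndufs7*, a core subunit with an iron-sulfur cluster near the quinone site, was the most variable of them, from the floor in WT 1 and KO 3 to 15.86 in KO 1. *Ndufs1*, *Ndufs3*, *Ndufs8*, *Ndufv1* and *Ndufv2*, which also encode core subunits, differed by -2.18 to 2.07.

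**Figure D4:**
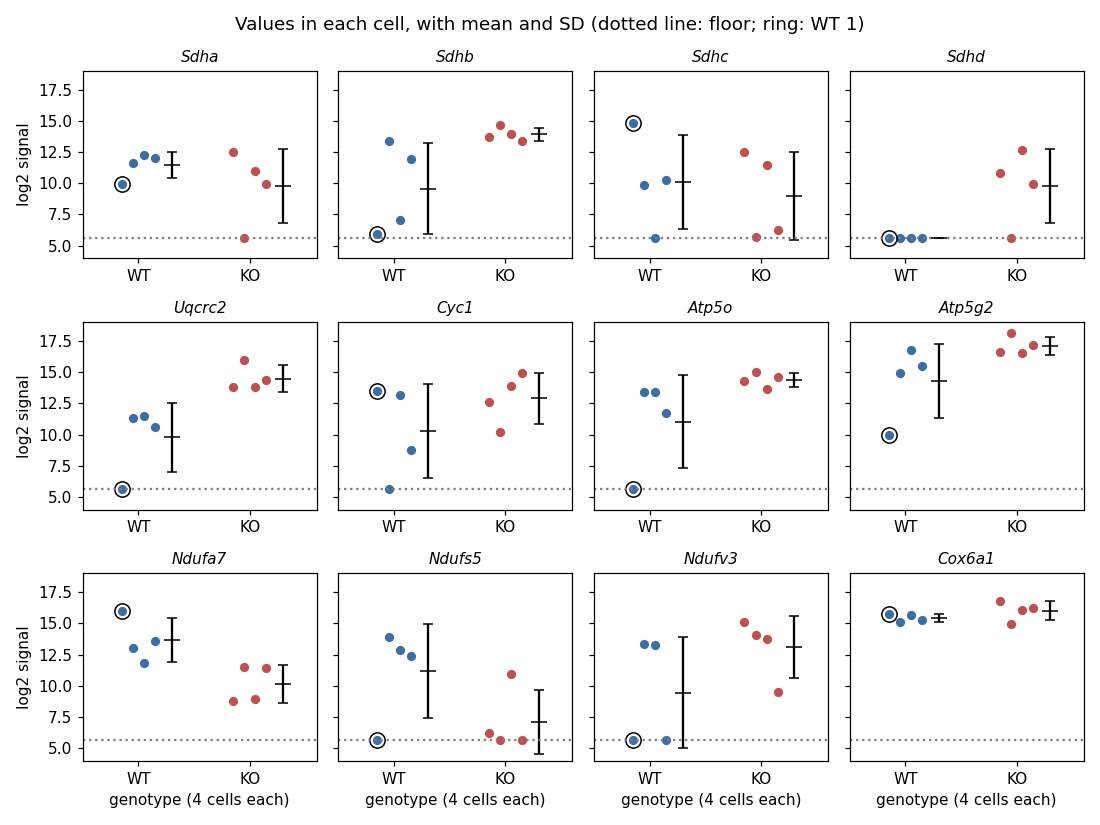
Log2 signal of 12 genes in each of 4 WT (blue) and 4 KO (red) cells, with the mean and SD of each genotype beside the points, a dotted line at the floor and a ring around WT 1. *Uqcrc2*, *Sdhb* and *Atp5o* are higher and *Ndufa7* is lower in every KO cell than in any WT cell, while *Cox6a1* stays between 14.95 and 16.79 in all cells.

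Complex V, the ATP synthase, had 2 of its 18 genes at least 5-fold higher and 1 at least 5-fold lower in KO cells. The shares of gene names with a mean of at least 200 were 8.34% and 7.05%, and those of all gene names 1.84% and 1.86%. *Atp5o* encodes the oligomycin sensitivity-conferring protein, which joins the peripheral stalk to the catalytic head. Its values were 5.64, 13.39, 13.39 and 11.76 in WT cells and 14.32, 15.03, 13.68 and 14.58 in KO cells. All KO cells were above all WT cells by at least 0.29. The difference of 3.36 (pooled SD 2.63) was 1.56 without WT 1, the cell at the floor, which is under 5-fold. The placement of its probe on chromosome 12, away from the gene, leaves a near-identical copy as a source of signal that was not tested.

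The proton-translocating ring of complex V is made of subunit c, which 3 genes encode as identical mature proteins. *Atp5g2* had values of 9.95, 14.93, 16.79 and 15.46 in WT cells and of 16.62, 18.13, 16.51 and 17.13 in KO cells. WT 1 was far below the rest and WT 3 reached the range of the KO cells. The difference of 2.82 (pooled SD 2.18) was 1.37 without WT 1, and a second probe, placed directly beside the first, gave 2.87. *Atp5g1* and *Atp5g3* differed by -0.20 (pooled SD 1.06) and 1.0 (pooled SD 1.12).

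*Atp5j2*, subunit f of the membrane part, had values of 15.36, 14.13, 12.91 and 13.98 in WT cells and of 9.99, 9.14, 14.93 and 12.81 in KO cells. KO 1 and KO 2 were far below the WT cells, KO 4 was just below them and KO 3 was above 3 of them. The difference of -2.38 (pooled SD 2.01) was -1.52 without KO 2, -1.8 without KO 1 and -1.96 without WT 1, each under 5-fold, and a second probe gave -2.09. *Atp5k*, subunit e, was near 7 in WT 1, KO 1 and KO 2 (7.03, 7.10 and 6.34) and at 12.45 to 13.55 in the 5 other cells. Its difference of -1.64 was -3.13 without WT 1. *Atp5b*, the catalytic beta subunit, was among the steadiest members, with values of 14.24 to 15.14 in WT cells, 12.72 to 15.66 in KO cells and a difference of -0.21 (pooled SD 0.97).

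No gene of complex IV, cytochrome c oxidase, differed by 5-fold in either direction over all 8 cells, whereas *Ndufa4* did without WT 1. Of its 20 genes, 4 lay at the floor in all 8 cells, where no difference can arise. Beside that, 1.84% of all gene names were higher and 1.86% lower, or 8.34% and 7.05% of those with a mean of at least 200. Finding none among 20 genes is thus near the shares over all gene names. In complex IV the highest difference was that of *Cox6c*, at 1.56, which was -0.15 without WT 1, and the lowest that of *Cox7a1*, at -1.15. *Cox4i1*, the ubiquitous isoform of subunit 4, was at 12.30 to 16.93 in WT cells and at 14.0 to 15.93 in KO cells, a difference of 0.72 (pooled SD 1.49). *Cox5b* was at 10.87 to 12.27 in WT cells and at 12.02 to 13.24 in KO cells. Its difference of 1.13 was larger than its pooled SD of 0.56, and WT 3 alone overlapped the KO cells. *Cox7c*, a small subunit, was 1.07 lower on the log2 scale in KO cells (pooled SD 0.82).

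Several complex IV subunits have a ubiquitous isoform and a tissue-restricted one. Of the forms classically found in heart and skeletal muscle, *Cox8b* was well above background in no cell. *Cox6a2* was well above background in 3 WT cells and at the floor after scaling in all 8, and *Cox7a1* was well above background in all 8 but exceeded the floor in WT 2 alone, at 10.24. Their ubiquitous partners were above the floor in every cell: *Cox6a1* had values of 15.73, 15.10, 15.70 and 15.28 in WT cells and of 16.79, 14.95, 16.07 and 16.27 in KO cells, and *Cox8a* and *Cox7a2* were at 11.79 to 15.24 and 12.14 to 15.04. *Cox6a1* differed by 0.57 (pooled SD 0.59), or by -0.07 with quantile normalization, with overlapping genotypes. *Cox4i2*, an isoform known from lung, was low but well above background in all cells, at 6.86 to 8.17 in WT cells and at 7.68 to 8.34 in KO cells. *Cox6b2*, known from testis, stayed between the floor and 7.46, while its ubiquitous partner *Cox6b1* was at 7.80 to 12.70 and differed by -0.07 (pooled SD 1.97).

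*Ndufa4* and its paralog *Ndufa4l2*, which is known to be induced in hypoxia, showed different patterns. *Ndufa4*, first described in complex I and now counted to complex IV, was at the floor in WT 1 and between 5.98 and 12.95 in the other cells, with a difference of -1.14 (pooled SD 3.02), or -2.76 without WT 1. *Ndufa4l2* was at 15.58 in WT 1 and 13.76 in KO 2 whereas the remaining 6 cells lay at the floor. One cell of each genotype was thus high, and its difference of -0.45 was 2.03 without WT 1. *Cox7a2l*, which is known for its part in joining complexes III and IV, was at 11.56 to 14.61 in WT cells and reached 14.76 in KO cells, with a difference of -0.45 (pooled SD 1.84).

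The SD over the 8 cells also differed between complexes, where the part of probe brightness was likewise not tested. Its median was 3.07 over the 36 complex I subunits, 3.14 over complex II, 2.78 over complex III, 1.43 over the 11 ubiquitous complex IV subunits and 2.12 over the 15 complex V subunits. Among members above the floor in all 8 cells, it was 2.60 over 12 genes of complex I, 2.06 over 6 of complex III, 1.15 over 11 of complex IV and 1.73 over 13 of complex V. The same median was 1.90 over all 44 members and 0.89 over the 2948 genes that were above the floor in all cells and had a mean of at least 200. The smallest SD values of such members were those of *Cox4i2* (0.51), *Cox6a1* (0.62), *Cox5b* (0.80), *Atp5b* (0.91) and *Cox7c* (0.95). The largest were those of *Ndufb8* (3.49), *Sdhb* (3.35), *Ndufb11* (3.32), *Atp5k* (3.22) and *Ndufb7* (3.14). *Ndufb8*, a membrane-arm subunit of complex I, was at 5.81 in WT 1 and at 10.16 to 16.06 in the 7 other cells. *Ndufb7* was at 8.10, 8.66 and 8.14 in WT 1, WT 3 and KO 1 and at 11.68 to 16.03 in the rest.

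**Figure D5:**
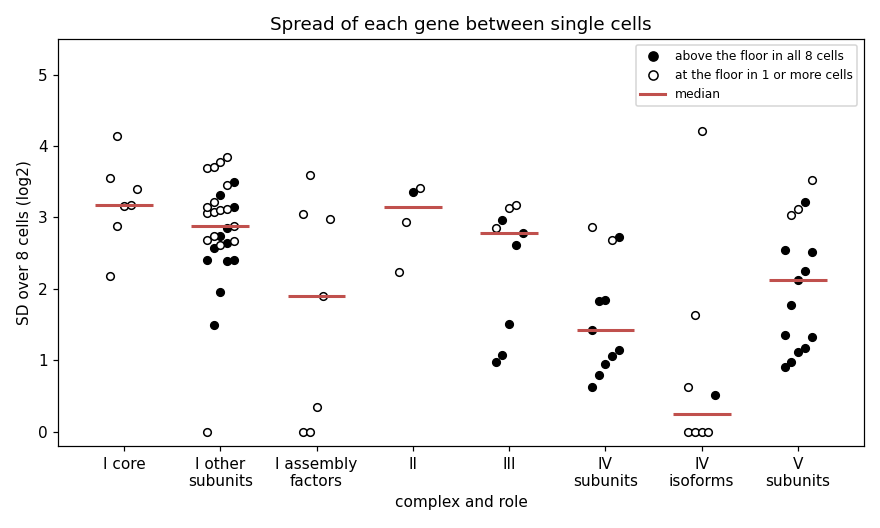
SD over the 8 cells of the log2 signal of each gene, grouped by complex and role, for genes above the floor in all cells (filled) and at the floor in at least 1 cell (open). Red bars mark medians, which are 1.43 for the complex IV subunits and 2.12 for the complex V subunits against 3.18 for the core subunits of complex I. Genes at the floor in all cells have an SD of 0, and all 7 core subunits of complex I were at the floor in some cells.

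From cell to cell, the correlation between subunits of one complex was near 0. Pearson's r over the 8 cells, given as a description of points that share their arrays and scaling, had a median of -0.05 over the 171 pairs within complex I, of subunits well above background in all cells. It was -0.03 over 21 pairs within complex III, 0.05 over 55 pairs within complex IV and 0.14 over 105 pairs within complex V. Between complexes the median was 0.01 over 974 pairs. Without WT 1 the median within complex V was 0.25 and the others were between -0.11 and 0.05.

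Other probes of the same gene mostly gave similar differences. The 36 other probes of 26 members gave a difference of the same sign as the brightest probe in 30 cases, of the opposite sign in 3 and of 0 in 3. Of the 23 other probes well above background in all cells, 21 gave a difference within 0.5 of that of the brightest probe, with a median gap of 0.09. Some of the 23 overlap or adjoin the brightest probe by their placement, as for *Uqcr10*, *Uqcrb*, *Cox7a2l*, *Ndufb4* and *Atp5g2*. Such probes read nearly the same stretch, so their agreement is not an independent check of a difference. *Atp5c1*, the gamma subunit of complex V, and the pseudogene *Atp5c1-ps* had an r of 0.997 over the 8 cells. Probes of near-identical genes may read each other's transcripts. The name rule counts the pseudogene as a member, and over the 12 complex V subunits alone the median SD above was 1.57 in place of 1.73. The brightest probes of 10 members, namely *Atp5o*, *Atp5g2*, *Atp5j2*, *Atp5k*, *Atp5l*, *Atp5c1*, *Cycs*, *Cox7c*, *Ndufs5* and *Ndufb11*, were placed on another chromosome than their gene and are uncertain in the same way. For *Cycs* a second probe, also placed off the gene's chromosome and well above background in 5 cells, gave 3.86 in place of 0.87, and the remaining probe, on that chromosome, was well above background in no cell.

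Other genes of the pathway were taken from lists chosen by function. Of all gene names 1.84% were at least 5-fold higher and 1.86% lower, and of those with a mean of at least 200, 8.34% and 7.05%. The lists are short, and whether their counts differ from these shares was not tested. Of 20 measured assembly factors outside the name rule, 2 were at least 5-fold higher in KO cells and 1 lower. *Sdhaf1*, which helps insert the iron-sulfur clusters of *Sdhb*, was above the floor in WT 1, KO 2 and KO 3 only, at 8.77, 15.22 and 11.70, and differed by 3.13 (pooled SD 3.53). *Oxa1l*, the inner-membrane insertase, differed by 2.58 and by 1.33 without WT 1. The lower gene was *Nubpl*, an iron-sulfur assembly factor of complex I, at -3.44 and at -1.42 without WT 1. Of 14 regulators of mitochondrial gene expression, 1 was at least 5-fold higher and 2 were lower. *Tfam*, the transcription factor that packages mitochondrial DNA, had values of 5.64, 9.05, 10.23 and 11.07 in WT cells and of 5.64, 5.64, 6.82 and 7.80 in KO cells. Except for WT 1 the WT cells were above the KO cells, and the difference of -2.52 (pooled SD 1.84) was -3.63 without WT 1. *Yy1*, whose string was searched above, was above the floor in WT 1 and WT 4 only and differed by -2.58 (pooled SD 2.12), or by -1.86 without WT 1. *Nrf1*, also searched for, was above the floor in WT 3 and WT 4 only. It differed by -1.92 (pooled SD 1.77), or by -2.56 without WT 1, which is past 5-fold. *Gabpa*, which encodes the ETS-family part of GABP, was at the floor in all 8 cells. *Polg*, the mitochondrial DNA polymerase, was above the floor in KO 2 and KO 3 only and differed by 2.48 (pooled SD 2.58).

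Of 16 genes of the tricarboxylic acid cycle and pyruvate dehydrogenase, 2 were at least 5-fold higher, *Dld* (3.18) and *Pdha1* (2.33, or 1.77 without WT 1), and 2 were lower. Those were *Idh3a* and *Idh3b*, subunits of the NAD-dependent isocitrate dehydrogenase, at -3.10 and -2.76. Without WT 1 the latter was -1.88, under 5-fold. Of 7 carriers and regulators of the adenine nucleotide pool, 1 was higher, *Vdac3*, at 2.68 and at 1.18 without WT 1. *Slc25a4*, the adenine nucleotide translocator of heart and muscle, had values of 14.22, 14.71, 14.92 and 14.32 in WT cells and of 15.71, 14.94, 15.69 and 15.27 in KO cells. It was higher in every KO cell than in every WT cell, by 0.86 on average (pooled SD 0.35), an amount well under 5-fold.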

How the data were processed

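Single endocardium cells from E8.5 heart tubes were profiled on 8 one-colour arrays, 1 cell each, after PCR identification of the cell type, cDNA amplification and in vitro transcription. The intensity values deposited by the authors are scanner output of Agilent Feature Extraction 12.0.2.2 (array design 028005, annotated on mm9), background-subtracted and detrended within each array and not normalized between arrays. The other columns used from the deposited files are the software's flags for outliers and signal over background. The authors' methods set values under 50 to 50 and used the 50th percentile of each array, the median of each gene and a 5-fold limit.

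Control and outlier spots were dropped, repeated spots were averaged, and 55295 of 55681 probes had a usable value on every array. A probe was well above background where over 50% of its spots were. Arrays were scaled to the 50th percentile over the set of 7570 probes that passed this on all 8, floored at 50 and log2-transformed. Differences are KO mean minus WT mean, with the SD between cells pooled over genotypes and no test, since the embryo of a cell is not named. Named genes were those at least 5-fold apart, not overlapping, of complex II, the electron carriers, paired isoforms, and the 5 smallest and largest SD values, and *Uqcrc1*, *Uqcr10*, *Cox6c*, *Atp5c1* and the named genes of the pathway lists were described after their values were seen. The members and lists were chosen with earlier results of these data known. Alternatives were other scalings, floors of 10 and 200, normexp with an offset of 50 (limma 3.58.1, R 4.3.3), other probe rules and leaving out each cell. The other steps used Python 3.11.15, numpy 2.4.6 and pandas 2.3.3, and were tested on simulated data. Symbols were matched to RefSeq for 94 of the 95 genes, of which 3 have another symbol there. The NRF1 string was shortened to its core after a longer form had been counted. No protein sequence was used here, and 1 member is not reported by name.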

Additional observations from a re-analysis of the deposited data

Results flagged for a closer look

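In a group of 4 cells, a cell was taken to stand apart where its gap to the nearest other cell, divided by the range of the 4, exceeded Dixon's critical value for 4 values. Of 94 groups (the named genes and the medians of the complexes, per genotype), 12 did so. For independent, normally distributed values the critical value flags about 1 in 20, or 4.7. These groups hold floored values and genes named for their spread or difference, so 4.7 is not the number to expect here and no excess can be read from 12. In 6 of the 12 the other 3 cells were at the floor, which gives a ratio of 1: *Ndufa5* in KO cells (KO 4), *Ndufaf2* in WT cells (WT 4), *Ndufaf3* in KO cells (KO 3), *Cox7a1* in WT cells (WT 2), and *Ndufa4l2* in both genotypes (WT 1 and KO 2).

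WT 1 was low against the other WT cells for *Ndufb8* (ratio 0.968), *Atp5k* (0.859) and *Uqcrc2* (0.854). The remaining ratios were 0.905 for *Ndufc1*, where WT 3 was low at 9.44, 0.892 for *Ndufs5*, where KO 3 was high at 10.94, and 0.843 for *Cox6b1*, where WT 4 was low at 7.80.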

How the results depend on the processing

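Of 718 values of 43 named genes under the alternatives, 715 moved by less than the SD between cells, 3 by more, and no gene at least 5-fold apart changed direction. The 3 were *Cox6a1* with quantile normalization (-0.07) and *Cox6a2*, otherwise at the floor, with normexp (0.18) and a floor of 10 (-0.36). Leaving out a cell cannot shift a difference by that SD, so the values with a cell left out could not count as moved. Of the 19 genes at least 5-fold apart, 11 stayed so without WT 1 and 11 with a floor of 200. The matching share over all gene names was not counted. The 13 higher genes became 8 with a floor of 200 and 7 where only the 61 members well above background on all arrays were kept, and the 6 lower genes became 3 in both. With that floor 0.906% of all gene names were higher and 0.681% lower, against 1.84% and 1.86% in the main setting. Among the 6480 gene names well above background on all arrays, 2.41% were higher and 1.87% lower. The 3 genes higher in every KO cell became 1, *Uqcrc2*, with the 75th percentile, with the floor before scaling, with the percentile of all probes and with quantile normalization. The floor before scaling gave 2 lower in every KO cell in place of 1. The 11 other genes of the pathway that differed by 5-fold became 5 with normexp, where 1.61% of all gene names were higher and 1.49% lower. They became 2 with a floor of 200 and 1 with probes well above background on all arrays. The causes were not tested, and the last setting also keeps fewer gene names. Leaving out 1 cell gave 8 to 18 higher and 5 to 9 lower genes, beside 1.55% to 2.64% and 1.9% to 2.96% of all gene names, the fewest higher without WT 1. It gave 3 to 6 genes higher and 1 to 3 lower in every KO cell, beside 0.802% to 1.51% and 0.239% to 0.69% of all gene names, with 5 higher without WT 3, KO 1 or KO 2, 6 without KO 4, 3 lower without WT 1, and 2 lower without WT 3, KO 1, KO 2 or KO 3. The other pathway genes numbered 7 to 15, the fewest without KO 2. Fewer cells make a gap between genotypes easier to meet. The median difference over the members stayed between -0.05 and 0.22, and was 0.18 with normexp, which moved the median of all genes to 0.22. No paired analysis was possible because no test was made and the numbers of the cells only name them. Depth, as probes above background, ran from 11370 to 18175 per array, and signals near the floor limit differences of dim genes.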
